A study of Mus musculus with 4 samples.

Results

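The 2560 peaks described here are Halo-Sox2D peaks at the ends of protein-coding genes where neither endogenous Sox2 nor full-length Halo-Sox2 had a peak. They were chosen by measured values, namely the peak coordinates themselves. A Halo-Sox2D peak was selected when no endogenous Sox2 or Halo-Sox2 peak centre lay within 500 bp and when its own centre was at most 1 kb from the start or the end of such a gene. Before this, peaks were dropped on mitochondrial DNA, on unplaced sequence and in 11 bins of 100 kb with 15 or more peaks of any list. The 2560 peaks are part of 13833 Halo-Sox2D peaks and of 29255 peaks in all 4 lists. Outside those bins there were 13241 Halo-Sox2D peaks. Of these, 8421 lacked endogenous Sox2 and Halo-Sox2 but lay away from gene ends, and 315 lay at gene ends with an endogenous Sox2 or Halo-Sox2 peak within 500 bp. The last 315 are called shared gene-end peaks below.

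All 4 libraries came from D3 mouse embryonic stem cells and were made by ChIP-exo, in which an exonuclease trims the isolated DNA up to the crosslinked protein. Endogenous Sox2 was isolated with an antibody against Sox2. The other libraries were made from fusions of Sox2 to HaloTag, a tag that binds covalently to HaloLink resin: Halo-Sox2, Halo-Sox2M with changes labelled M47G, F50 and M51G, and Halo-Sox2D with Sox2 residues 1 to 120. There was 1 library per group, so no difference had a replicate check and no test was run. Shares are given with 95% Wilson intervals over peaks, genes or windows. These cover counting error only and treat neighbouring peaks, and genes that share a peak, as separate counts. Endogenous Sox2 gave 7153 peaks, Halo-Sox2 6558 and Halo-Sox2M 1711, with no heights or read numbers, so the depth of each library is unknown. Peaks were 1 to 20 bp wide, with a median of 11 bp for the 2560 peaks as for each whole list. The amounts of the fusion proteins and whether the cells also held endogenous Sox2 are not given in the labels.

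Sox2 binds DNA through its HMG box, a domain near the protein's start that inserts into the minor groove and bends the helix, and its known cores include ACAATG and ACAAAG. The longer region that follows the HMG box activates transcription and contacts other factors. In embryonic stem cells Sox2 is best known at enhancers, where it binds beside Oct4. The start of a protein-coding gene carries the promoter, and promoters of housekeeping genes are mostly CpG islands that are open in nearly all cell types.

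The next 8 promoters held most of these peak centres by a fixed order of ties, with 3 each, and are shown because they let the placing of single peaks be read against the letters. They are 300-base windows from 250 bases before to 50 bases after a transcription start, credited to RefSeq (GRCm38.p6, the coordinates of mm10). They are written 5′ to 3′ along the gene, and capitals mark bases inside called peaks. In Zfp710, Zfp687 and Wbp1 some called peaks overlap and share a stretch of capitals, so the centres are not all separate sites.
Ilf2, chr3:90475951-90476250, plus strand: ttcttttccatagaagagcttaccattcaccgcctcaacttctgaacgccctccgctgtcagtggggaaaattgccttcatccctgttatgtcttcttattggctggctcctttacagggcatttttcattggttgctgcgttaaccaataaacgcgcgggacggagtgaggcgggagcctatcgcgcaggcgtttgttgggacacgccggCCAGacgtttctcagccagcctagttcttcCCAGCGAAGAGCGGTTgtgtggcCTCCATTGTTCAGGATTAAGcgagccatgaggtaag
Zfp113, chr5:138155695-138155994, minus strand: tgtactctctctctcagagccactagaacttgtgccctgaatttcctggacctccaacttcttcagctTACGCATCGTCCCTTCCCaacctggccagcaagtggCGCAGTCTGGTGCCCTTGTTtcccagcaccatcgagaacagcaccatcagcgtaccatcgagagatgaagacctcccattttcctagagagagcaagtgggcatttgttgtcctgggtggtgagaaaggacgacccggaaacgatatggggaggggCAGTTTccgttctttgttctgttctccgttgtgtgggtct
Epha2, chr4:141300971-141301270, plus strand: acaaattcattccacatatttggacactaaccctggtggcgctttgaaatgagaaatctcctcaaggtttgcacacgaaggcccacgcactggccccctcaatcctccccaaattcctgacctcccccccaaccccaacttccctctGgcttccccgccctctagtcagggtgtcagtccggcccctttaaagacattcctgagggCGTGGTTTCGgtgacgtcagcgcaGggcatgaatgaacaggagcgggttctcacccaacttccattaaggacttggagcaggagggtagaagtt
Actr3, chr1:125435678-125435977, minus strand: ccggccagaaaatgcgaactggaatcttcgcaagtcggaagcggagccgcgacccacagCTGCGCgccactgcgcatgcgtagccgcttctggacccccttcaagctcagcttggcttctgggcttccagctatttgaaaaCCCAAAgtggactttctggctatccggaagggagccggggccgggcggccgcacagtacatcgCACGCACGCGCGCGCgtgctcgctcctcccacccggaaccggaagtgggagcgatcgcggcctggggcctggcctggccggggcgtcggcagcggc
Zfp710, chr7:80024564-80024863, plus strand: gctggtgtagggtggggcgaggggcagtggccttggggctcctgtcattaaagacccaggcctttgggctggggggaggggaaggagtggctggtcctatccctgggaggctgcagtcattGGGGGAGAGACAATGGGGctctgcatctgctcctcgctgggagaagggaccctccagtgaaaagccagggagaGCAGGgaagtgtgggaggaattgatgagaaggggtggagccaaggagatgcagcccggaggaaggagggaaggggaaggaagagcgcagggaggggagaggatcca
Zfp687, chr3:95015408-95015707, minus strand: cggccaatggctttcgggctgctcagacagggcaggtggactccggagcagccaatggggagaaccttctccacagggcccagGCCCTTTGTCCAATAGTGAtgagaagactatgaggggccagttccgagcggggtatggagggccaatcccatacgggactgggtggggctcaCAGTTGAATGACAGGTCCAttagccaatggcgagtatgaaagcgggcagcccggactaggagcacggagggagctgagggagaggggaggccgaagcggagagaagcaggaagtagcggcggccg
Wbp1, chr6:83121412-83121711, minus strand: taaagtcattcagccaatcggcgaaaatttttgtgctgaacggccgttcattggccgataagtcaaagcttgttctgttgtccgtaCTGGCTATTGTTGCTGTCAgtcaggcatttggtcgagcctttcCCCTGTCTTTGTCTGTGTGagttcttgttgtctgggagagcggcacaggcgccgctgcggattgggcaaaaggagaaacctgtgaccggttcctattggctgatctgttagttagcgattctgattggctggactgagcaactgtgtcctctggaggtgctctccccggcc
Cenpu, chr8:46551819-46552118, plus strand: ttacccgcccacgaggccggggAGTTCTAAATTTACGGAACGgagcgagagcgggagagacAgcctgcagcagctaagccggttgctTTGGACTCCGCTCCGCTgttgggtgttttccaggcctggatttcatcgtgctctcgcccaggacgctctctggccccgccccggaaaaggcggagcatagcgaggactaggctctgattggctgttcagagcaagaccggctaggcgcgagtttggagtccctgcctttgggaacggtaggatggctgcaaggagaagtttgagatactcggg

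The peaks of Ilf2 were centred 37.5 and 1.5 bp before and 23.5 bp after the start, and the last of them covers CATTGT, the core ACAATG read on the opposite strand. Zfp710, a C2H2 zinc finger gene, had centres 120.5, 114 and 54 bp before the start, and the first peak ends on the core ACAATG and the Gs that follow it. In Zfp687, another C2H2 zinc finger gene, and in Wbp1, which encodes a WW domain-binding protein, a peak covers CTTTGT, which is ACAAAG on the opposite strand. Zfp113, also of the C2H2 zinc finger genes, holds ACAAAG on the opposite strand near the peak centred 12.5 bp after its start. The other 3 promoters hold neither core. Epha2, an Eph receptor tyrosine kinase gene, had centres 103, 39.5 and 20 bp before its start. Actr3, which encodes a subunit of the actin-nucleating Arp2/3 complex, had them 39, 106.5 and 188.5 bp before. Cenpu, a centromere protein gene, had them 218.5, 189 and 155 bp before.

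A second set shows peaks that sat on the core. These 8 windows of 41 bases are centred on single peaks and were taken, after values were seen, from those with the least distance between peak centre and core. Capitals mark ACAATG on either strand.
Chd6, chr2:161109192-161109232, minus strand: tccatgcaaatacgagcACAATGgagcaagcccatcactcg
Ddhd1, chr14:45658152-45658192, minus strand: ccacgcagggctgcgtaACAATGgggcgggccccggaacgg
Etnk1, chr6:143167121-143167161, plus strand: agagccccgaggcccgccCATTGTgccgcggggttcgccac
Glo1, chr17:30612757-30612797, minus strand: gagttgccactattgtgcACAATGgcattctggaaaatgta
Llgl1, chr11:60699681-60699721, plus strand: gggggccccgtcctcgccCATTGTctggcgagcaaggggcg
Btg1, chr10:96616886-96616926, plus strand: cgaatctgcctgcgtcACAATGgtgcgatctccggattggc
Frat1, chr19:41829950-41829990, plus strand: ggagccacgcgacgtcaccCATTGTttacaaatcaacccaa
Frat2, chr19:41848116-41848156, minus strand: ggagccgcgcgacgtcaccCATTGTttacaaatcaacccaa

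The cores sit in different surroundings. Chd6 encodes a chromatin remodeller, Ddhd1 a phospholipase, Etnk1 an ethanolamine kinase and Glo1 glyoxalase I. Llgl1 encodes a cell polarity protein and Btg1 an antiproliferative factor. Frat1 and Frat2, adjacent genes that encode GSK3-binding proteins of Wnt signalling, are near-identical copies around the start, so reads could have been placed at either. For the other 6, the distance from peak centre to core centre was 0.5 bp, except at Btg1 with 1.5 bp. The nearest endogenous Sox2 peak was 11.6 kb away at Glo1, 24.7 kb at Etnk1 and 540 kb at Btg1.

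Most windows held neither core. The last set shows 6 of these, picked from genes of the lists given below, whose peak centre lay within 6 bp of a start. Eif4enif1 and H4c12 also met these limits and are not shown. Capitals mark the called peak.
Cdc16, chr8:13757629-13757669, plus strand: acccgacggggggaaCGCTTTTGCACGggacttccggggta
H2bc11, chr13:22043179-22043219, plus strand: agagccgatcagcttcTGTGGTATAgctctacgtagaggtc
Rpl10, chrX:74270798-74270838, plus strand: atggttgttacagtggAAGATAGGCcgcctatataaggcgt
Snrpc, chr17:27840010-27840050, plus strand: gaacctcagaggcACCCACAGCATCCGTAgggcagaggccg
Psmc1, chr12:100110177-100110217, plus strand: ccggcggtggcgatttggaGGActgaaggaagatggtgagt
Psmb9, chr17:34187304-34187344, minus strand: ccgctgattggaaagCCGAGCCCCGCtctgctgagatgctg

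Cdc16 is a subunit of the anaphase-promoting complex, H2bc11 a replication-dependent histone gene and Rpl10 a protein of the large ribosomal subunit. Snrpc encodes a protein of the U1 spliceosomal particle, Psmc1 an ATPase of the proteasome and Psmb9 a subunit of the immunoproteasome. The peak centres lay 0.5 bp after the start of Cdc16, 1 bp after that of H2bc11, 2 bp after that of Rpl10 and 2.5 bp after that of Snrpc. At Psmc1 the centre lay 5 bp before the start, and at Psmb9 it lay 6 bp after it.

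The rule counted both ends of a gene alike, so the side on which the peaks fell was not fixed by it. Strand was known for 17492 of 21887 protein-coding genes, and 2088 of the 2560 peaks had a nearest gene of known strand. The nearest gene end was a transcription start for 1839 of the 2088 (88.1%, 86.6 to 89.4) and a transcript end for 249. The windows searched were of similar length, 33.3 Mb around starts and 33.5 Mb around ends. Within 250 bp of a start lay 1174 peaks (56.2%, 54.1 to 58.3), and within 100 bp lay 689 (33%, 31 to 35). The median distance to the start was 152 bp, with quartiles of 58 and 385 bp.

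**Figure D1:**
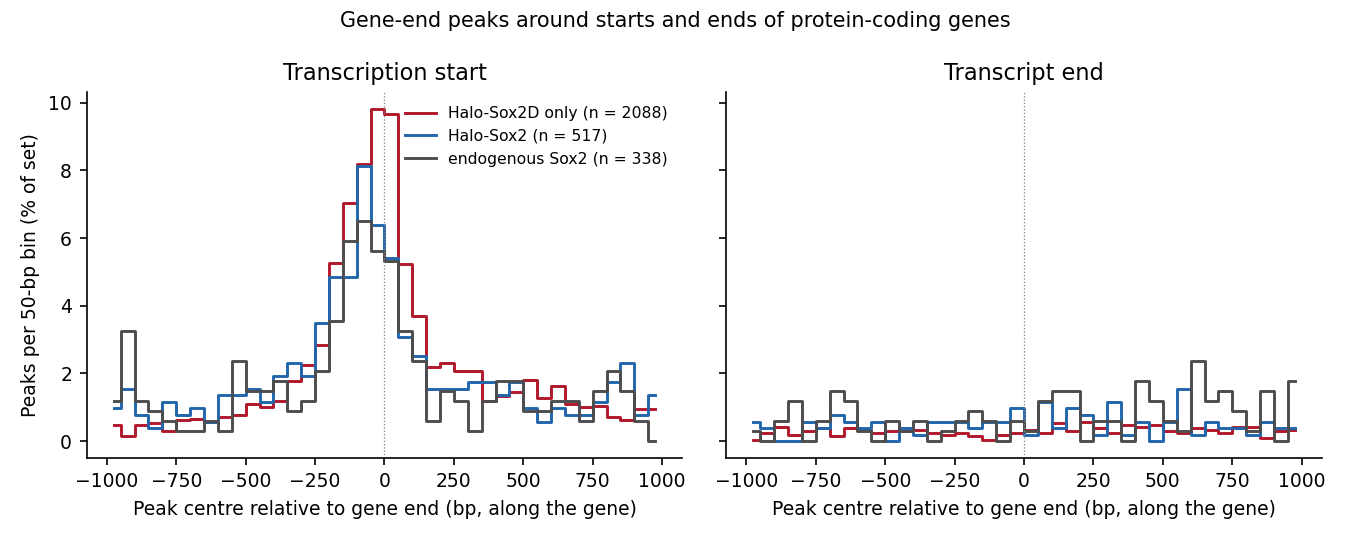
Share of gene-end peaks per 50-bp bin (y axis, % of peaks whose nearest gene has a known strand) against the centre's position along the gene in bp, at transcription starts (left) and transcript ends (right), 1 library per line. The Halo-Sox2D-only line is highest in the bins just before (9.82%) and just after (9.67%) the start, and no such summit stands at transcript ends.

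Peaks fell on both sides of the start. In the plot of positions along the gene, 205 centres lay in the 50 bp before the start and 202 in the 50 bp after it, with 171 and 109 in the next bins out. Of the 1839 peaks nearest a start, 955 were upstream (51.9%, 49.6 to 54.2), with a median signed position of -8.5 bp. Peaks nearest a transcript end lay farther off, at a median of 492 bp, and 147 of 249 (59%, 52.8 to 65) were beyond the end.

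Gene-end peaks of the other libraries had lower start shares, though not all beyond counting error. The start share was 71% (66 to 75.6) for endogenous Sox2, with 338 peaks of known strand, and 80.1% (76.4 to 83.3) for Halo-Sox2, with 517. It was 81.7% (76.5 to 86) for the shared Halo-Sox2D peaks, 257 of which had a known strand. These 3 intervals lie below that of the Halo-Sox2D-only peaks. For Halo-Sox2M, with 123 such peaks, it was 84.6% (77.1 to 89.9), and this interval overlaps. Within 100 bp of a start lay 21% (17 to 25.7) of endogenous Sox2, 23% (19.6 to 26.8) of Halo-Sox2, 30.1% (22.7 to 38.7) of Halo-Sox2M and 33.1% (27.6 to 39) of shared peaks. The last value is level with the 33% of the Halo-Sox2D-only peaks.

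Both thresholds of the rule cut through falling numbers of peaks. Halo-Sox2D-only peaks numbered 864 up to 100 bp from a gene end, 620 from 100 to 250 bp and 488 from 250 to 500 bp. There were 89 between 900 and 1000 bp, just inside, and 89 between 1000 and 1100 bp, just outside. Of Halo-Sox2D peaks at gene ends, 209 had an endogenous Sox2 or Halo-Sox2 centre within 100 bp and 19 between 400 and 500 bp, which left them out. A further 14 between 500 and 600 bp stayed in. These values describe the choice and are not results.

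Of 21887 protein-coding genes, 2502 had at least 1 of these peaks within 1 kb of an end, which is 11.4%. A peak counted for every gene with an end within 1 kb. Of the 2560 peaks, 390 were that near to ends of 2 genes and 7 to ends of 3 or more. Any Halo-Sox2D peak was found at 12.5% of genes. An endogenous Sox2 peak was found at 1.68% of genes, a Halo-Sox2 peak at 2.99% and a Halo-Sox2M peak at 0.722%. These shares also follow the lengths of the lists. Outside dense bins, Halo-Sox2D had 13241 peaks, endogenous Sox2 6364, Halo-Sox2 5829 and Halo-Sox2M 954. Among the genes of known strand, 10.3% had a Halo-Sox2D-only peak at the start and 1.94% at the end, and 81 genes had both. The peaks were mostly single: 2117 genes had 1, 322 had 2, 51 had 3 and 12 had 4 or more. Another of the 2560 peaks lay within 50 bp of 205 of them (8.01%, 7.02 to 9.12), and 52 overlapped another. Joining peaks within 1000 bp left 2231 sites.

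The most peaks at a single gene were 5, at Hbp1 and Tmed1. Peaks were counted as called, and at Tmed1, Lamtor1 and Tubb4b a called peak lay inside another. Hbp1 (chr12:31926452-31950530, minus strand), itself an HMG-box transcriptional repressor, had centres at 926.5, 132 and 43 bp after its start, 78 bp before it, and 373 bp before its transcript end. The nearest Halo-Sox2 peak was 90.4 kb or more from each of them. Tmed1 (chr9:21507380-21510234, minus strand), a cargo receptor of the early secretory pathway, had centres at 297, 304.5 and 341.5 bp before its start, 280.5 bp after it, and 432 bp beyond its transcript end. Lamtor1 (chr7:101905837-101911903, plus strand) anchors the Ragulator complex to lysosomes. It had 1 centre 154 bp before the start and others 44.5, 51 and 78.5 bp after it. Tubb4b (chr2:25222158-25224702, minus strand), a beta-tubulin, had centres at 438.5 bp after and 121.5, 435.5 and 442 bp before its start, and a Halo-Sox2 peak lay 2.4 kb from the first. Zbtb45, a BTB zinc finger gene, had centres 635, 413.5 and 173 bp after and 660 bp before its start.

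Where strand was not known, only the distance to an end can be given. Eif4g2, a scaffold of translation initiation, had 4 centres between 10 and 879 bp from a gene end. Carm1, an arginine methyltransferase, had 4 between 77.5 and 326 bp, and Eloc, which encodes elongin C, had 4 between 253 and 380 bp. Tbx3, a T-box factor of the naive pluripotent state, had 4 between 301 and 558 bp, with the nearest Halo-Sox2 peak 9.06 kb away. At Carm1, Eloc and Tbx3 a called peak also lay inside another, and both were counted. With Epha2, shown above, the genes named here are 10 of the 12 with 4 or more peaks. Epha2 also had a centre 389 bp before its transcript end.

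Gene groups were compared with the 11.4% of all protein-coding genes. That share includes the large receptor, keratin and defensin families given below, which had almost no peak. It was not matched to the lists on promoter composition, so how far CpG-rich promoters account for higher shares was not tested. No difference between groups was tested, and lists of under 80 genes gave wide intervals. A peak was found at 8 of 28 RNA polymerase subunit genes (28.6%, 15.3 to 47.1), the highest share of the 22 lists. Polr2b, the second largest subunit of RNA polymerase II, had centres 314 bp before and 56.5 bp after its start, and Polr1b, of RNA polymerase I, had 1 centre 42 bp before. Polr3b, of RNA polymerase III, had centres 153.5 and 174 bp after its start.

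Ribosomal protein genes had peaks at 20 of 78 cytosolic members (25.6%, 17.3 to 36.3) and 18 of 78 mitochondrial ones (23.1%, 15.1 to 33.6). The other libraries also exceeded their shares over all genes here. Endogenous Sox2 was at 3.85% of each list, Halo-Sox2 at 3.85% of the cytosolic and 5.13% of the mitochondrial genes, and Halo-Sox2M at the same 3.85% and 5.13%. These rest on 3 or 4 genes each. Rps21, of the small subunit, had centres 178.5 bp before and 11 bp after its start, and Rplp2, of the ribosomal stalk, had centres 109.5 and 78.5 bp before. Mrpl11 had 3 peaks, 119.5 and 78.5 bp before and 170 bp after its start, and Mrps10 had 2, 23 bp before and 19 bp after. With bins of 5 or more peaks also left out, the cytosolic share was 16.7% (13 of 78), against 9.47% of all genes under that setting. Genes in the bins left out stayed in these counts although they could have no peak, here and for the lists below.

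Splicing factor genes had peaks at 12 of 53 (22.6%, 13.5 to 35.5). Of the 47 with known strand, 12 had a peak at the start and 0 at the end. Hnrnpa1, an abundant nuclear RNA-binding protein, had centres 363 and 160 bp before and 33 bp after its start. Srsf4, an SR protein, had centres 164 and 141.5 bp before and 533.5 bp after. Snrpc, shown above, had its single centre 2.5 bp after the start.

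Respiratory complex I genes had peaks at 12 of 49 (24.5%, 14.6 to 38.1). Ndufc1 had centres 98.5 and 145.5 bp before its start and Ndufv1 had 1 centre 14.5 bp after it. Chaperone genes had peaks at 16 of 72 (22.2%, 14.2 to 33.1), among them Cct6a, of the ring-shaped CCT chaperonin, with centres 24.5 and 19 bp before its start. Translation factor genes had peaks at 14 of 71 (19.7%, 12.1 to 30.4) and cell cycle cyclins and kinases at 15 of 75 (20%, 12.5 to 30.4). Both lists were drawn by gene symbol. The cell cycle genes with a peak included Cdc16, Cdc23, Cdc34, Cdc14b and Cdk5rap1, which are neither cyclins nor kinases. Among translation factors, Eef1akmt4 and Eef1akmt4-ece2, entries that share a gene name, were counted as separate genes. Ccnt2, the cyclin T2 of the elongation factor P-TEFb, had centres 183 and 162 bp before its start. Proteasome genes had peaks at 9 of 48 (18.8%, 10.2 to 31.9) and Mediator genes at 5 of 28 (17.9%, 7.88 to 35.6). The last 2 intervals include the share of all genes, and the lower limit for translation factors, 12.1%, lies close to it. With gene ends taken within 500 bp, translation factors were at 11.3% (8 of 71), against 8.78% of all genes under that setting. With bins of 5 or more peaks left out, proteasome genes were at 12.5%, against 9.47%, with the genes in those bins still counted.

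Replication-dependent histone genes, short genes in clusters, had peaks at 15 of 63 (23.8%, 15 to 35.6). With 58 of known strand, 13 had a peak at the start and 13 at the end, since a peak can be within 1 kb of both ends of so short a gene. H4c12 had centres 142 and 3 bp after its start, and H2bc14 had centres 222.5 and 168 bp before. Halo-Sox2 peaks were also found at 15 of the 63 and endogenous Sox2 peaks at 6 (9.52%). With bins of 5 or more peaks left out, 3 of 63 histone genes had a Halo-Sox2D-only peak (4.76%), against 9.47% of all genes. All 63 genes were counted, and those in the bins left out could have no peak. The lower share is therefore not a result about histone genes.

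**Figure D2:**
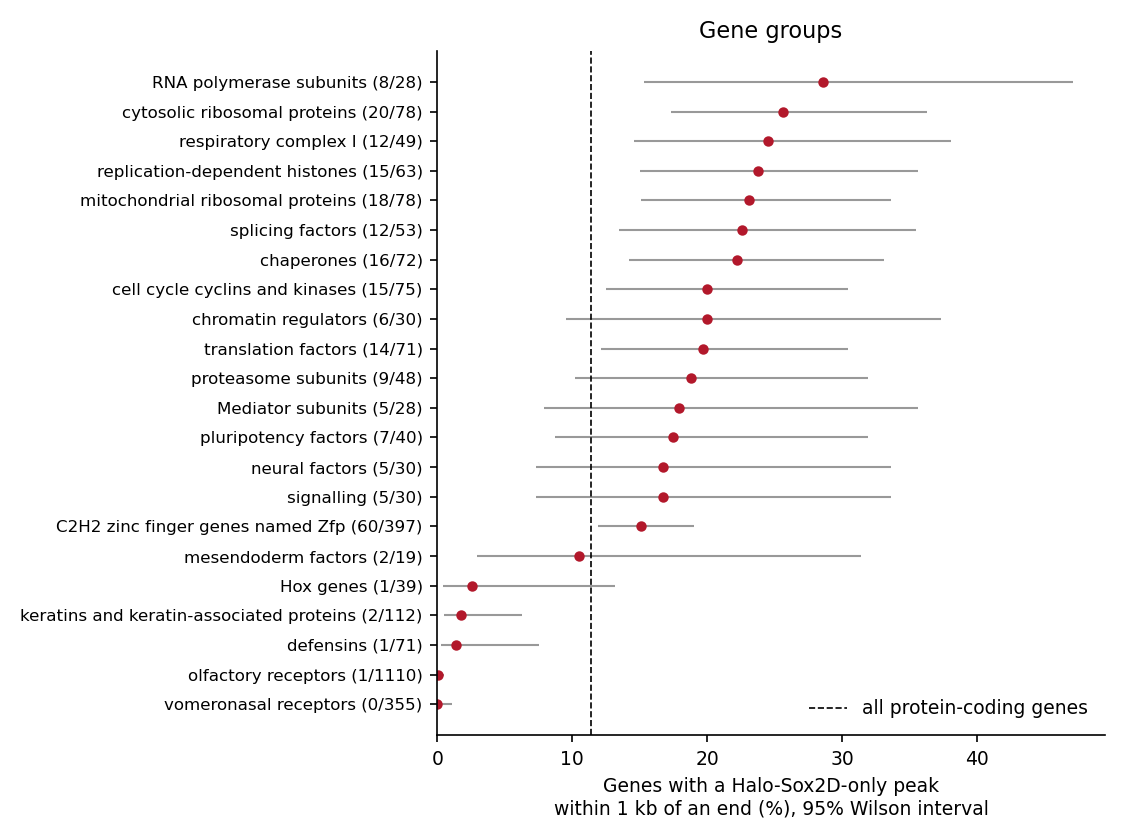
Share of the genes of each of 22 lists with a Halo-Sox2D-only peak within 1 kb of an end (x axis, %), with bars for 95% Wilson intervals and counts beside the names; the dashed line is the share of all protein-coding genes. RNA polymerase subunits stand highest at 28.6% and olfactory and vomeronasal receptors lowest, near 0.

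Lists tied to embryonic stem cells and to Sox2 hold 19 to 40 genes. Pluripotency factors had peaks at 7 of 40 (17.5%, 8.75 to 31.9), signalling genes and neural factors at 5 of 30 each (16.7%, 7.34 to 33.6) and chromatin regulators at 6 of 30 (20%, 9.51 to 37.3). Their intervals include 11.4%, and chromatin regulators were level with the cell cycle list. At the same pluripotency genes, endogenous Sox2 had peaks at 8 and Halo-Sox2 at 10, against 1.68% and 2.99% of all genes. With bins of 5 or more peaks left out, the Halo-Sox2D-only share was 5% of pluripotency factors. It was 6.67% each of signalling genes and chromatin regulators, against 9.47% of all genes. Genes in the bins left out were still counted but could have no peak, so these shares are not a result about the lists. With gene ends within 500 bp, chromatin regulators were at 10%, against 8.78%, and with 2 kb pluripotency factors were at 27.5%, against 14.6%.

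The pluripotency genes were Tbx3, Trim28, Sall4, Lefty1, Dppa3, Rest and Fgf4. Trim28, a corepressor recruited by zinc finger proteins, had its centre 92 bp before the start, with an endogenous Sox2 peak 0.765 kb away. Sall4, a zinc finger factor, had its centre 93 bp from a gene end, with a Halo-Sox2 peak 1.91 kb away. Of the signalling genes, the kinase Jak1 had a centre 84 bp after its start, and Etv5, an ETS factor downstream of FGF, had a centre 163 bp before it. Mbd3, of the NuRD complex, had centres 742.5 bp after and 263.5 bp before its start. Arid1a, of BAF remodelling complexes, had 1 centre 14.5 bp after. Neurog2, a proneural bHLH factor, had its centre 31.5 bp after the start, and Tubb3, the neuronal beta-tubulin, 133 bp before. Mesendoderm factors had peaks at 2 of 19 (10.5%), Sox7 and T. That share was 5.26% with gene ends within 500 bp and 15.8% within 2 kb.

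C2H2 zinc finger genes named Zfp had peaks at 60 of 397 (15.1%, 11.9 to 19). Zfp113 had centres 12.5 bp after and 136.5 and 173.5 bp before its start. Zfp7 had 2 centres, 3 and 11.5 bp from a gene end.

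Families expressed in few tissues had almost no such peak. It was found at 1 of 1110 olfactory receptor genes (0.0901%), 0 of 355 vomeronasal receptor genes, 1 of 71 defensin genes (1.41%) and 2 of 112 keratin and keratin-associated genes (1.79%). The other libraries were as low here. Halo-Sox2 had a peak at 1 olfactory receptor gene and 0 genes of the other families, and endogenous Sox2 and Halo-Sox2M had 0 in each. Of 39 Hox genes 1 had a peak (2.56%), Hoxa10, with a centre 367.5 bp after its start and another 900 bp before its transcript end. Within 2 kb the Hox share was 10.3%, against 14.6% of all genes. The X chromosome was also low, with 25 of 966 genes (2.59%, 1.76 to 3.79) against 2477 of 20665 on autosomes (12%, 11.6 to 12.4). On X, endogenous Sox2 was at 0.207% of genes and Halo-Sox2 at 1.76%, against 1.77% and 3.09% on autosomes. Outside dense bins and unplaced sequence, X held 0.823% of Halo-Sox2D peaks, against 1.24% for endogenous Sox2 and 1.96% for Halo-Sox2.

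Base composition was read in the RefSeq promoter windows, which the rule did not use. Of the 2560 peaks, 1020 had their centre in such a window, and the windows belonged to 957 genes. These promoters were rich in CpG: 748 of 1020 (73.3%, 70.5 to 76) had at least 55% GC and a CpG observed to expected ratio of at least 0.6. Among all 21238 promoters, 41% (40.3 to 41.6) met both limits. The median GC content was 62% against 56.3%, and the median CpG ratio was 0.818 against 0.567. Promoters with an endogenous Sox2 peak met the limits in 55.9% (45.8 to 65.6), those with Halo-Sox2 in 59.1% (51.7 to 66.1) those with Halo-Sox2M in 68.8% (56.6 to 78.8) and those with a shared Halo-Sox2D peak in 61.6% (51.8 to 70.6). The intervals of endogenous Sox2 and Halo-Sox2 lie below that of the Halo-Sox2D-only promoters, and the other 2 overlap it. The median CpG ratio of shared promoters, 0.821, was level with theirs.

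As whole promoters, those with a Halo-Sox2D-only peak held the core ACAATG in 13.2% (11.3 to 15.5) against 11% of all promoters. This order turned when promoters were taken from all genes with a peak within 1 kb of the start, of which 10.3% held it (9.08 to 11.6, which includes 11%). Promoters with an endogenous Sox2 peak held it in 23.7% (16.2 to 33.2) and shared ones in 24.2% (16.9 to 33.5). ACAAAG was in 17.1% (14.9 to 19.5) against 16.8%. All motifs were searched on both strands. The GC box GGGCGG was in 70% (67.1 to 72.7) against 46.2%, the ETS site CCGGAAG in 22.8% (20.4 to 25.5) against 11.6%, and the NF-Y box CCAAT in 48.9% (45.9 to 52) against 38.2%. The TBP box TATAAA was in 4.31% (3.23 to 5.74) against 12.6%. Some of the motifs searched can share letters, such as ACAATG with the junction and octamer motifs given below.

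At the peaks themselves the order changed. A window of 41 bases around the centre could be read for 936 peaks. ACAATG was in 76 of them (8.12%, 6.54 to 10), against 1.69% of every 41-base window of the same promoters, a ratio of 4.79. ACAAAG was in 74 (7.91%, 6.34 to 9.81), against 2.27%, a ratio of 3.48. At least 1 of these cores was in 148 windows (15.8%, 13.6 to 18.3), against 3.94%. The background windows were not matched on distance from the start. A match describes letters and is not a binding site.

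The longer junction ATTGTNATG, where Sox and octamer sites meet, had the highest ratio of the 14 motifs, 6.03, but in 4 windows (0.427%, 0.166 to 1.09, against 0.0709%). The octamer ATGCAAAT, bound by Oct4 and its relatives, was in 0.534% (0.228 to 1.24) against 0.372%, and the CRE TGACGTCA in 0.962% (0.507 to 1.82) against 0.571%. Both intervals include the background.

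The common promoter motifs were near the level of the same promoters at large. The GC box was in 17.2% of peak windows (14.9 to 19.8) against 17.5%, the NF-Y box in 11% (9.16 to 13.2) against 10.8%, and the ETS site in 2.78% (1.9 to 4.04) against 3.44%. The E-box CACGTG was in 1.5% against 1.51% and the NRF1 core GCATGCGC in 0.855% against 0.995%. The YY1 core AAGATGGC, the TBP box, the palindrome CTCGCGAG and the THAP11/ZNF143 core ACTACAATT were each in under 1% of both, with ratios of 1.07, 0.895, 1 and 1.03. Mean GC of the peak windows was 62.1%, close to the 62% of whole promoters.

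**Figure D3:**
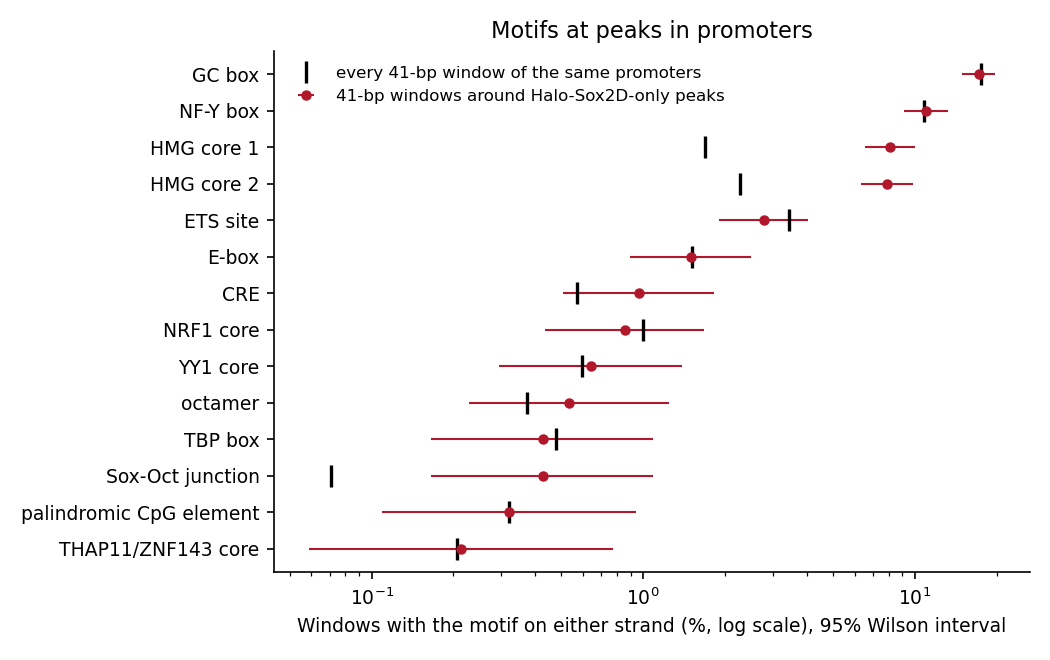
Share of 41-base windows around Halo-Sox2D-only peaks with each motif (red points, bars for 95% Wilson intervals) and share of every window of the same promoters (black ticks), on a log x axis in %. The red points of HMG core 1 (ACAATG, 8.12%) and HMG core 2 (ACAAAG, 7.91%) lie right of their ticks (1.69% and 2.27%), as does the Sox-Oct junction (0.427% against 0.0709%), while the GC box and NF-Y box lie on theirs.

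All six-letter words were then ranked without a motif in mind. Of 860 words seen in at least 15 peak windows, ACAATG had the highest ratio to the background windows, and 10 of the leading 10 held ACAA on either strand. AACAAT followed with a ratio of 3.7 and ATTGTC with 3.55. Many of the leading words share letters with ACAATG or ACAAAG, so they are not 10 separate observations. Words in fewer than 15 peak windows were not ranked, whatever their ratio. Narrower windows of 21 bases held ACAATG in 6.45% against 0.777%, a ratio of 8.31, and windows of 101 bases in 10.3% against 4.44%, a ratio of 2.32.

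Occurrences were also counted in the 16620 promoters whose start lay within 600 bp of a protein-coding gene end, with each occurrence in overlapping windows counted once. There were 1914 of ACAATG, and 83 had a Halo-Sox2D-only centre within 20 bp (4.34%, 3.51 to 5.34). For 2905 occurrences of ACAAAG the share was 2.38% (1.88 to 3), for the NF-Y box 1.42% (1.19 to 1.68) and for the GC box 1.3% (1.14 to 1.49). At ACAATG the summit was in the 10-bp bin on the motif, with 42 centres, followed by 26 in the bin before it and 15 in the bin after it. Of the same 1914 occurrences, endogenous Sox2 gene-end peaks were at 15 (0.784%, 0.476 to 1.29), Halo-Sox2 at 12 (0.627%, 0.359 to 1.09) and Halo-Sox2M at 1. These lists were of different lengths, so the shares say where peaks were called and not how strongly a site was bound.

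**Figure D4:**
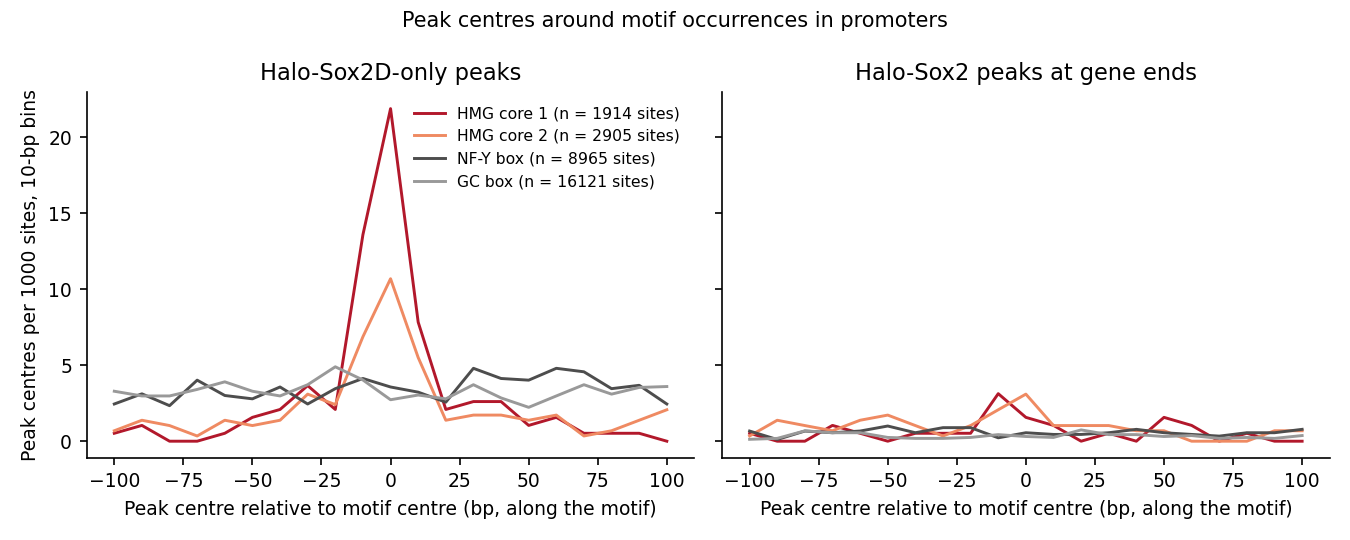
Peak centres per 1000 motif occurrences in promoters (y axis) in 10-bp bins of distance from the motif centre along the motif (x axis, bp), for Halo-Sox2D-only peaks (left) and Halo-Sox2 gene-end peaks (right). The left panel rises to 21.9 at ACAATG (HMG core 1) and 10.7 at ACAAAG (HMG core 2), while the GC box and NF-Y box stay under 5.

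Promoter windows of the other peak sets held the cores at rates whose intervals all overlapped that of the Halo-Sox2D-only peaks (15.8%, 13.6 to 18.3). For endogenous Sox2 the overlap was narrow, from 18.1 to 18.3. No background from their own promoters was computed. At least 1 core was in 23 of 88 windows of endogenous Sox2 (26.1%, 18.1 to 36.2), 24 of 159 of Halo-Sox2 (15.1%, 10.4 to 21.5), 18 of 102 shared Halo-Sox2D peaks (17.6%, 11.5 to 26.2) and 5 of 47 of Halo-Sox2M (10.6%, 4.63 to 22.6). ACAATG alone was in 14.8% (8.84 to 23.7) of endogenous Sox2 windows, 6.92% (3.91 to 12) of Halo-Sox2 and 8.82% (4.71 to 15.9) of shared windows. For Halo-Sox2M it was in 1 of 47 (2.13%, 0.377 to 11.1). Each of these intervals overlaps that of the Halo-Sox2D-only windows (8.12%, 6.54 to 10). Genes whose Halo-Sox2D-only windows held ACAATG included Thap11, a zinc finger factor with a centre 18 bp before the promoter's start. They also included Psmd8, a proteasome subunit with a centre 34 bp before it, and Tubb3. Ilf2 and Zfp710, shown above, were in the same set.

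Halo-Sox2M was used by the rule for dense bins alone, so its peaks could be set beside these. A Halo-Sox2M centre lay within 500 bp of 28 of the 2560 peaks (1.09%, 0.758 to 1.58). Of the Halo-Sox2D-only peaks away from gene ends, 31 of 8421 had one (0.368%, 0.259 to 0.522), and of the shared gene-end peaks 15 of 315 (4.76%, 2.91 to 7.71). The share at gene ends was therefore above the one away from them and below that of shared peaks, with intervals that did not overlap. In all, 27 genes had such a pair. At Nit2, an omega-amidase gene, the centres of the Halo-Sox2D and Halo-Sox2M peaks were 4 bp apart, and at Rps9, of the small ribosomal subunit, 9 bp. At Mfsd12, a membrane transporter gene, they were 28.5 bp apart. Ywhag, which encodes a 14-3-3 protein, had 3 Halo-Sox2D-only peaks, the nearest 68 bp from a Halo-Sox2M peak, and a Halo-Sox2 peak 0.824 kb away.

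Few of the 2560 peaks had endogenous Sox2 or Halo-Sox2 somewhat farther off. Such a centre lay between 500 bp and 5 kb from 253 of them (9.88%, 8.79 to 11.1), and from 925 of the 8421 Halo-Sox2D-only peaks away from gene ends (11%, 10.3 to 11.7). These intervals overlap. The median distance to the nearest endogenous Sox2 peak was 108 kb at gene ends and 95.1 kb away from them, and to the nearest Halo-Sox2 peak 85.9 and 89.8 kb. Since the rule excluded neighbours within 500 bp in both sets, these distances begin at that limit.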

How the data were processed

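Peak lists of 4 ChIP-exo libraries were used, with chromosome, start and end of each peak as the authors deposited them. Per the submitters' processing notes, Bowtie2 and mm10 were used. Details of the peak caller, its threshold and read filtering were not given in the sources used here. Members and gene lists were chosen with earlier results of these data known. Centres were compared with ends of 21887 protein-coding genes of RefSeq GRCm38.p6 in Python 3.11.15 (pandas 2.3.3, numpy 2.4.6), with Wilson intervals from scipy 1.17.1. Strand came from the RefSeq promoter table, which covers 17492 of these genes. In it 14 motifs were searched on both strands. The code was tested on simulated data. Genes named were the 10 with most members, up to 4 per gene list and up to 8 with Halo-Sox2M within 500 bp; promoters shown were the 8 with most centres. Thap11, Psmd8, the 8 genes shown with the core and those shown without either core were chosen after their values were seen. So were other list members given by name alone. Alternatives changed the sharing distance, gene end distance, dense bins, joining of peaks and genes used. No resin-only or input library was used here.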

Additional observations from a re-analysis of the deposited data

How the results depend on the processing

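The number of peaks ranged from 1972 to 3241 over the alternatives, and of genes with a peak from 1921 to 3464, each within 1.5 times its reported value. The count of 3464 was with all annotated genes, not protein-coding genes alone. Among protein-coding genes the highest count was 3196, with gene ends within 2 kb. Leaving no bins out changed neither number. The start share was 92.1% for gene ends within 500 bp, 83.2% within 2 kb and 85.2% with all annotated genes. Halo-Sox2M within 100 bp was found at 0.352% of the peaks. The share with endogenous Sox2 or Halo-Sox2 up to 5 kb away was 13.5% with sharing set at 100 bp, 8.23% at 1000 bp and 8.53% with bins of 5 or more peaks left out. Of promoters of all genes with a peak within 1 kb of the start, 10.3% held ACAATG, below the 11% of all promoters. That core was in 6.45% of 21-base and 10.3% of 101-base windows, both added after the data were seen. Of 22 lists, 16 exceeded the share of all genes, against 13 with bins of 5 or more peaks left out. Under that setting genes in the bins left out were still counted but could have no peak. Histone genes had a peak in 36.5% when sharing needed an overlap of 1 bp. The causes of these changes were not tested, except that other windows hold other numbers of bases. A stricter peak threshold was not run, since the lists hold no score. No paired analysis was possible because each group has 1 library.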

Other observations

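Some of the 2560 peaks lay beside genes of small RNAs. A miRNA gene was within 500 bp of 14 of them (0.547%, 0.326 to 0.916), against 4 of 8421 Halo-Sox2D-only peaks away from gene ends (0.0475%, 0.0185 to 0.122) and 6 of 315 shared gene-end peaks (1.9%, 0.876 to 4.09). They included Mir3091 at Rps21, Mir5131 at Ddhd1 and Mir8114 at Glul, the glutamine synthetase gene, each with 2 peaks. These 3 were chosen after their values were seen. A tRNA gene was within 500 bp of 12 (0.469%, 0.268 to 0.818), against 46 (0.546%, 0.41 to 0.728) away from gene ends and 1.59% of shared gene-end peaks. A lncRNA gene was within 500 bp of 200 (7.81%, 6.83 to 8.92), against 309 (3.67%, 3.29 to 4.09) and 7.62% of shared gene-end peaks. Among autosomes, the share of genes with a Halo-Sox2D-only peak ran from 8.61% on chromosome 18 to 15.6% on chromosome 17.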
